A study of Mus musculus with 8 samples.

Results

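The semaphorins, plexins, neuropilins, ephrins, Eph receptors, Slits and Robo receptors are among the classical guidance systems of mouse tissues. They were taken as the protein-coding genes whose symbols belong to semaphorin classes 3 to 7, the plexins, Nrp1 and Nrp2, EphA and EphB receptors, ephrins A and B, Slit1 to Slit3 and Robo1 to Robo3. This gave 59 genes of the 49671 in the count files, 31 of them ligands (20 semaphorins, 8 ephrins, 3 Slits) and 28 receptors (9 plexins, 2 neuropilins, 14 Eph receptors, 3 Robo receptors). RNA sequencing libraries were made from polyadenylated RNA of mouse samples that the labels call adipocytes. There were 4 libraries of the BMPR2 DELX mutant and 4 of its ROSA control. Strain, age, sex, further alleles, any Cre or promoter and the meaning of DELX are not given in the sources used here, nor is it stated whether samples came from separate animals, so p-values measure the spread between these samples, which may be technical.

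Guidance ligands and their receptors steer migrating cells and growing axons by changing the actin skeleton and adhesion of the cell that carries the receptor. Secreted class 3 semaphorins bind neuropilins, which signal through plexins, while most other semaphorins are membrane-bound and bind plexins directly. Ephrins and Eph receptors are both held in the membrane, so they act between touching cells and can signal into either cell, and secreted Slits repel cells that carry Robo1 or Robo2. In stroma and vessels the same families set the boundaries between arterial and venous cells, the branching of vessels and the spreading of fibroblasts.

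Totals of the stranded gene counts were 28799445 to 43684785 per library. Bmpr2, the receptor gene named in the mutant label, had 237, 208, 201 and 199 CPM (counts per 1000000, scaled by trimmed mean of M values factors) in BMPR2 DELX 1 to 4, against 216, 207, 183 and 183 CPM in ROSA 1 to 4. These gene totals hide exon content, so they do not check the genotype (log2 fold change 0.10 ± 0.08, edgeR adjusted p 0.47). Adipocyte markers were divided and did not settle the labelled cell type. Of 13, 7 were under 1 CPM in every library, and Adipoq, the adiponectin gene, had at most 0.169 CPM. The other 6 were present in every library. Fabp4 had 33.8 to 74.4 CPM, Pparg 12.4 to 26.3 CPM and Cebpa 7.58 to 22.7 CPM over the 8 libraries. Lpl had 119 to 246 CPM, Pnpla2 32.8 to 48.9 CPM and Lipe 3.64 to 6.64 CPM. A list of 12 fibroblast markers had summed levels of 16725 to 20283 CPM in BMPR2 DELX, against 16109 to 19243 CPM in ROSA. Most of each sum came from the matrix genes Fn1, Col1a1 and Col1a2, while the fibroblast markers Dpt, Lum and Pi16 had at most 1.55 CPM in any library. Others of the list lay between. Over the 8 libraries Col3a1 had 410 to 1415 CPM, Pdgfra 107 to 175 CPM and Thy1 105 to 380 CPM. Cd34 had 11.7 to 81.7 CPM, Dcn 6.22 to 34.4 CPM and Ly6a 6.82 to 18.3 CPM. Some libraries stood apart. ROSA 1 and ROSA 2 were high in the immediate early gene Egr1, which was at 40.8 to 45.3 CPM in the 4 BMPR2 DELX libraries, against 319 CPM in ROSA 1, 216 CPM in ROSA 2, 32.5 CPM in ROSA 3 and 46.6 CPM in ROSA 4. The summed level of 18 endothelial markers was lowest in BMPR2 DELX 3 and ROSA 3 within their groups, at 530 and 1041 CPM. It was 1101 to 2129 CPM in the other BMPR2 DELX libraries and 1615 to 2237 CPM in the other ROSA libraries. Not every marker followed the sum. Flt1 had 93.7 CPM in BMPR2 DELX 3, the highest of that group, and the scarce Vwf was not lowest there. Ptprb was lower in ROSA 4, at 46.1 CPM, than in ROSA 3, at 50.9 CPM. In bulk RNA, fewer cells of a type and less RNA per cell cannot be told apart.

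Of the 59 guidance genes, 53 had enough counts to be tested. Per kilobase of exon, the most abundant were the ephrin Efnb1 with 74.2 CPM per kb in BMPR2 DELX libraries and 46.6 CPM per kb in ROSA libraries, and the plexins Plxnb2 with 63.6 CPM per kb in BMPR2 DELX, against 55.4 in ROSA, and Plxna1 with 46.5 CPM per kb in BMPR2 DELX, against 47.8 in ROSA. The highest Eph receptor over all 8 libraries was Ephb4 (37.8 CPM per kb in BMPR2 DELX, 29.8 CPM per kb in ROSA), although Epha2 was above it in ROSA (19.5 CPM per kb in BMPR2 DELX, 32.6 CPM per kb in ROSA), and the highest neuropilin was Nrp2 (29.9 CPM per kb in BMPR2 DELX, 35.2 in ROSA). The highest Slit was Slit3 (32.5 CPM per kb in BMPR2 DELX, 23.9 in ROSA), and the highest Robo receptor was Robo1 (1.56 CPM per kb in BMPR2 DELX, 1.03 in ROSA). Among semaphorins the GPI-anchored Sema7a was highest, at 13.0 CPM per kb in BMPR2 DELX and 33.4 CPM per kb in ROSA. The class 3 semaphorin of highest level was Sema3f, at 7.83 CPM per kb in BMPR2 DELX, against 4.95 in ROSA. Ligands and receptors of the ephrin-B, semaphorin and Slit systems were thus measured in the same libraries.

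**Figure D1:**
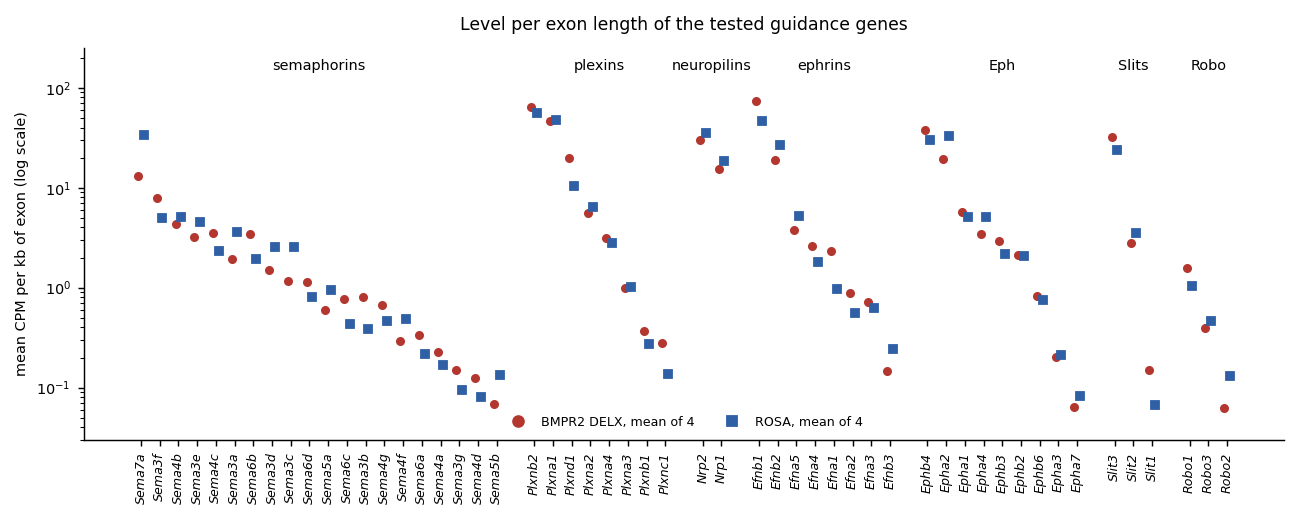
Mean level per kilobase of exon (log scale) of the 53 tested guidance genes, grouped by family and ordered by level, with circles for BMPR2 DELX and squares for ROSA (means of 4 libraries, no error shown). Efnb1, Plxnb2 and Plxna1 lie highest, at about 46 to 75 CPM per kb, and Sema7a shows a wide gap between the groups, 13.0 in BMPR2 DELX against 33.4 in ROSA.

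Guidance ligands differed between the groups in both directions, and no receptor passed the test. Of the 53 tested genes, 6 rose and 6 fell in BMPR2 DELX at an adjusted p below 0.05 (edgeR quasi-likelihood test, Benjamini-Hochberg adjustment over all 14887 genes tested), and 41 did not pass. Over all genes 3.96% were called higher and 5.15% lower, 9.10% in all. That was 589 genes higher and 766 lower, and with upper-quartile factors it was 734 higher and 606 lower. The 12 called genes were 9 of 20 semaphorins and 3 of 8 ephrins. None (0) of 22 tested receptors and 0 of 3 Slits passed in edgeR, although 11 receptors and 1 Slit had an unadjusted p below 0.05, against 26.3% of all genes. DESeq2 called 7 receptors and 0 Slits (15.4% of all genes), and voom called 2 receptors and 1 Slit (11.0% of all genes). Whether ligands and receptors differ in this respect was not tested. Values of the groups were fully separated for 18 of the 53 genes, against 18.0% of all genes. The median log2 fold change of BMPR2 DELX over ROSA was 0.17 over the 53 genes and 0.0045 over all genes tested.

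Without ROSA 1 and ROSA 2 together, a setting chosen after seeing the data, edgeR called 0 of the 53 genes and 1.11% of all genes. The 12 genes kept their signs, and each had an unadjusted p below 0.05, among 23 of the 53 that did. The share of all genes at that unadjusted p was not counted in this setting. The 12 genes were chosen by a fit that holds these same libraries, so their signs and unadjusted p are not independent support. Leaving out 1 library at a time, Sema3a, Sema3c, Sema4c and Sema7a passed in all 8 fits.

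**Figure D2:**
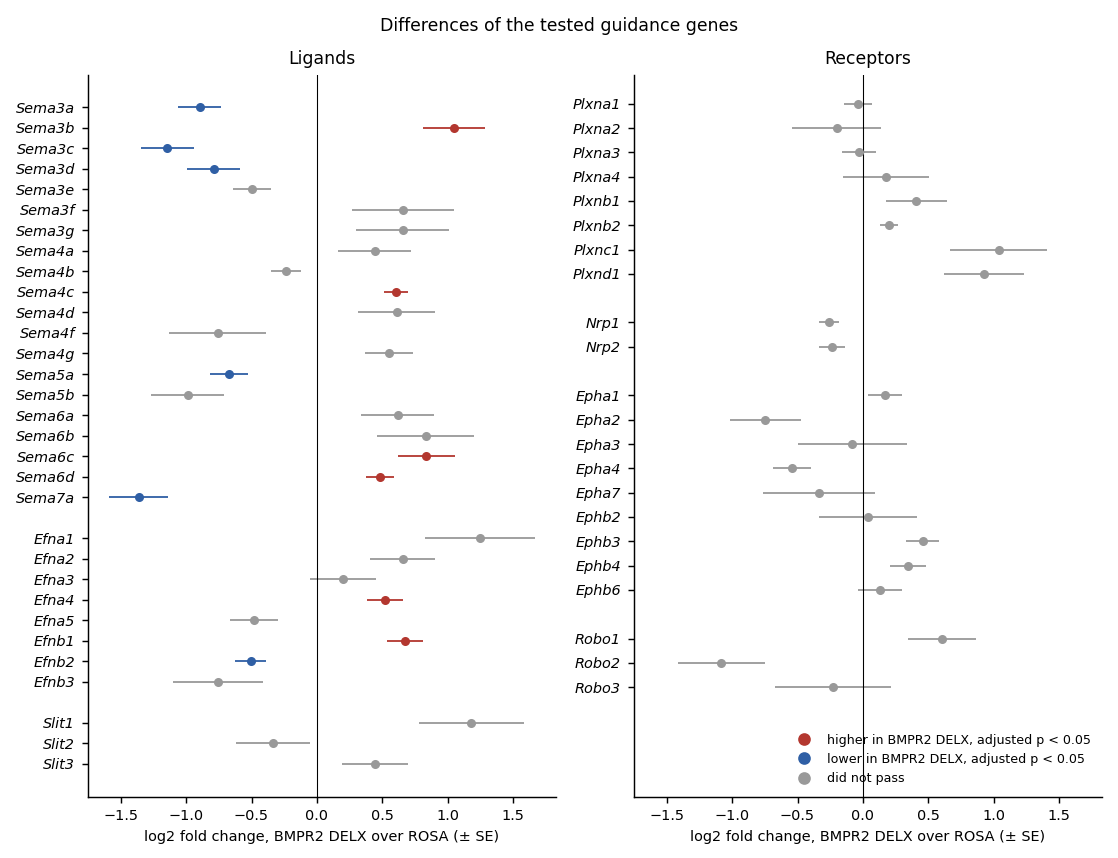
Log2 fold change of BMPR2 DELX over ROSA with its standard error for the 53 tested guidance genes, ligands on the left and receptors on the right, coloured where the edgeR adjusted p was below 0.05. The 6 higher and 6 lower genes are all on the ligand side, and Sema7a at -1.36 and Sema3b at 1.05 are the outermost coloured points.

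Secreted class 3 semaphorins moved in opposite directions. Of 7 genes, Sema3a, Sema3c and Sema3d fell, Sema3b rose and 3 did not pass. Sema3a encodes the founding collapsin-type repellent that acts through Nrp1. It had 26.4, 24.9, 34.3 and 22.7 CPM in BMPR2 DELX 1 to 4, against 57.5, 47.0, 59.1 and 37.8 CPM in ROSA 1 to 4. The groups did not overlap, and ROSA 4 was the lowest control. The log2 fold change was -0.90 ± 0.17 (SE, n = 4 per group, edgeR adjusted p 0.015), and it ran from -1.03 to -0.81 without 1 library.

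Sema3c, which binds both neuropilins and guides outflow tract and vessel cells, had 6.84, 8.20, 9.98 and 8.20 CPM in BMPR2 DELX 1 to 4, against 22.3, 18.0, 21.7 and 11.6 CPM in ROSA 1 to 4. ROSA 4 was again lowest among the controls and still above each BMPR2 DELX library. The log2 fold change was -1.14 ± 0.20 (SE, n = 4 per group), significant at an edgeR adjusted p 0.012, and ranged between -1.31 and -1.02 when 1 library was left out. Sema3d, a further neuropilin ligand, had 13.4, 11.9, 15.7 and 10.3 CPM in BMPR2 DELX 1 to 4, against 27.3, 19.6, 26.5 and 15.1 CPM in ROSA 1 to 4. Here ROSA 4 lay below BMPR2 DELX 3. The gene fell by 0.79 (SE 0.20, edgeR adjusted p 0.041), and the call was lost without any 1 of BMPR2 DELX 1, 2 or 4 or ROSA 1, 2 or 3, with adjusted p of 0.081 to 0.11.

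Sema3b, a repellent and growth inhibitor, had 4.03, 3.04, 4.37 and 3.91 CPM in BMPR2 DELX 1 to 4, against 1.58, 1.46, 1.56 and 2.83 CPM in ROSA 1 to 4. The groups did not overlap, although ROSA 4 stood well above the other controls. The gene rose by 1.05 ± 0.24 (SE, edgeR adjusted p 0.025), which was 1.32 without ROSA 4, and lost the call without any 1 of BMPR2 DELX 1, 3 or 4 or ROSA 1, 2 or 3, with adjusted p of 0.052 to 0.075. Its neighbour on chromosome 9, Sema3f, a ligand of Nrp2, had 52.2, 61.9, 19.3 and 29.3 CPM in BMPR2 DELX 1 to 4, against 23.6, 35.1, 16.1 and 28.0 CPM in ROSA 1 to 4. These groups overlapped widely (log2 fold change 0.66 ± 0.39, edgeR adjusted p 0.32). Sema3g was scarce and did not pass, with 0.689 ± 0.0742 CPM in BMPR2 DELX libraries, against 0.429 ± 0.216 CPM in ROSA libraries (SD, n = 4 each).

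The 3 class 3 genes that fell lie within 5.35 megabases on chromosome 5, along with Sema3e, which binds Plxnd1 without a neuropilin. On GRCm38 and the forward strand, Sema3d lies at chr5:12383385-12588948, Sema3a at chr5:13125414-13602565, Sema3e at chr5:14025276-14256689 and Sema3c at chr5:17574281-17730268. Sema3e had 29.6, 38.3, 23.3 and 28.7 CPM in BMPR2 DELX 1 to 4, against 44.0, 47.2, 42.5 and 35.3 CPM in ROSA 1 to 4. BMPR2 DELX 2 lay above ROSA 4, and the log2 fold change of -0.49 ± 0.14 did not pass (edgeR adjusted p 0.062). The interval from Sema3d to Sema3c holds 77 genes of the files, 21 of them protein-coding, and 8 had enough counts to be tested. Of these 8, Sema3d, Sema3a and Sema3c were called lower and 7 had a negative log2 fold change. The interval ends were set at Sema3d and Sema3c, already called lower in these data, so both counts are partly fixed by that choice. The share of all tested genes with a negative sign was not counted. The other tested genes were Hgf, the hepatocyte growth factor gene, at 0.64 ± 0.26, the calcium channel subunit gene Cacna2d1 at -0.19 ± 0.06, and the predicted genes Gm43719 and Gm28710 at -1.01 ± 0.34 and -0.78 ± 0.44, with edgeR adjusted p of 0.088 to 0.30 for these 4. Just beyond Sema3c, Gnai1, an inhibitory G protein subunit, fell by 0.40 (SE 0.11, adjusted p 0.044), and the fatty acid transporter gene Cd36 was at 0.48 ± 0.80. Over all of chromosome 5, 42 of 983 tested genes were called lower, or 4.27%. Gm43719 lies just beyond the end of Sema3a on the same strand. The part that position has in these differences was not tested.

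**Figure D3:**
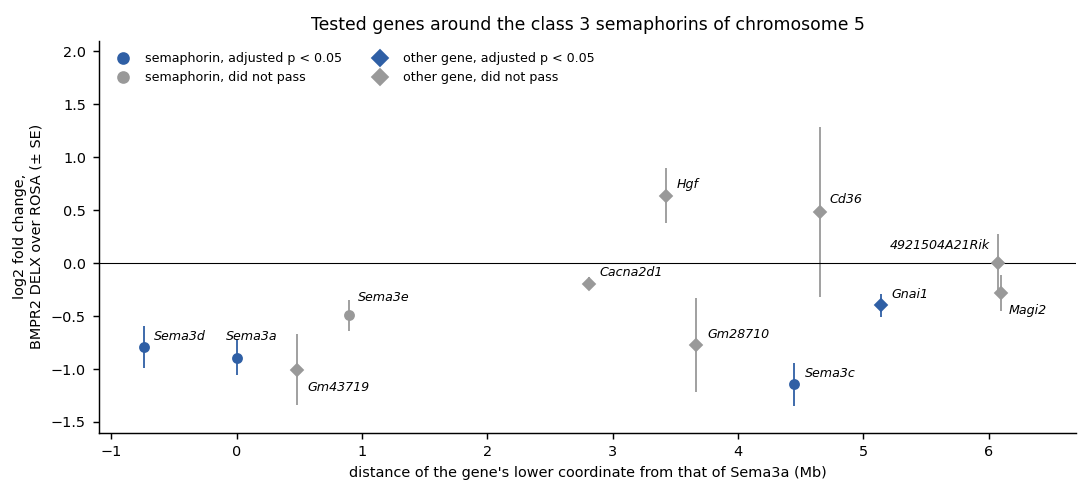
Log2 fold change of BMPR2 DELX over ROSA with its standard error for the tested genes around the chromosome 5 semaphorins, by distance in megabases from the lower coordinate of Sema3a. Sema3d, Sema3a and Sema3c, at -0.79 to -1.14, and Gnai1 at -0.40 passed the threshold, and Hgf and Cd36 between or beside them lie above 0.

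Promoter sequence is shown for Sema3d and Sema3a, which fell together, for Sema7a, which had the largest fall, and for Efnb1 and Efnb2, which moved apart. Each is 250 bases upstream of the RefSeq transcription start (GRCm38.p6), written 5′ to 3′ on the gene's strand. Capitals mark CAGAC, the core of the SMAD box, or GGCGCC, a GC-rich element bound by the SMADs of the BMP branch, on either strand. RefSeq promoters were found for 52 of the 59 genes. The windows are chr5:12382916-12383165 (+) for Sema3d, chr5:13396534-13396783 (+) for Sema3a, chr9:57939862-57940111 (+) for Sema7a, chrX:99135811-99136060 (+) for Efnb1 and chr8:8661243-8661492 (-) for Efnb2.
Sema3d: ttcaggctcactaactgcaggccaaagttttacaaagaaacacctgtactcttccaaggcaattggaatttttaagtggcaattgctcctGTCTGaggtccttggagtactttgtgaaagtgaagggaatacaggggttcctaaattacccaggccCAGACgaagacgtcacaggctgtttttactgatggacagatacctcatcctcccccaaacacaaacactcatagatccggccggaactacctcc
Sema3a: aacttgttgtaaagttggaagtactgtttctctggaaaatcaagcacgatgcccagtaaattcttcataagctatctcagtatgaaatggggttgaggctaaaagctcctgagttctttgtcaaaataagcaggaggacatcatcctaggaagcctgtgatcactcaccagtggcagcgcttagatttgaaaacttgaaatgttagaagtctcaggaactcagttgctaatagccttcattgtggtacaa
Sema7a: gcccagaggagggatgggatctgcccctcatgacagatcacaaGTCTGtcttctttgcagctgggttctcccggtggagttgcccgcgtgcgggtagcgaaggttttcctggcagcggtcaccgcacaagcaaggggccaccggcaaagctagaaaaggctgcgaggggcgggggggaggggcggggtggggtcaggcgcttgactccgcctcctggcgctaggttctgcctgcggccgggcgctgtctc
Efnb1: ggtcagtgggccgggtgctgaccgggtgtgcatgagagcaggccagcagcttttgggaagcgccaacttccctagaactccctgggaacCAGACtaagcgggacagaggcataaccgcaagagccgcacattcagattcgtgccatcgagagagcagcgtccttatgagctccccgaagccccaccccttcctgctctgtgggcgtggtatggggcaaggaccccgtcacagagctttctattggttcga
Efnb2: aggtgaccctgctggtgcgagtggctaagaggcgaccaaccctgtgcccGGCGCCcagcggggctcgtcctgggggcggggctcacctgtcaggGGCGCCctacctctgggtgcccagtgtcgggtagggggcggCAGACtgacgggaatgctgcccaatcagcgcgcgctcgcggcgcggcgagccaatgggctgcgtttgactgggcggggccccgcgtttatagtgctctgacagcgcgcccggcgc

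The Sema3d window held 2 matches of CAGAC, the Sema7a and Efnb1 windows 1 each, and the Efnb2 window 1 match of CAGAC and 2 of GGCGCC, with no overlap among them. The Sema3a window lies inside the gene span given above, at the start of the RefSeq entry, and not before the start of that span. It held neither motif and had 40.8% G and C, against 72.0% in the Efnb2 window. Over the same length of all 32851 RefSeq promoters, 42.2% held CAGAC and 9.59% held GGCGCC. The AP-1 motif TGANTCA, found in 6.75% of promoters, and the E-box CACGTG, found in 6.02%, were in none (0) of the 5 windows. A match is a description of the letters and not a bound site.

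Sema7a, a GPI-anchored semaphorin that signals through Plxnc1 and beta1 integrins, had the largest difference among the called guidance genes. It had 36.7, 29.4, 51.3 and 53.5 CPM in BMPR2 DELX 1 to 4, against 84.6, 118, 142 and 96.1 CPM in ROSA 1 to 4. Each control library was above each BMPR2 DELX library. It fell by 1.36 (SE 0.23, edgeR adjusted p 0.012). With 1 library left out the log2 fold change ranged between -1.49 and -1.22, and it was -1.46 without ROSA 1 and ROSA 2 (adjusted p 0.064). Its receptor Plxnc1 was scarce and its values went the other way, with 1.41, 1.52, 3.46 and 2.905 CPM in BMPR2 DELX 1 to 4 and 1.15, 0.728, 0.898 and 1.78 CPM in ROSA 1 to 4. ROSA 4 lay above BMPR2 DELX 1 and 2, and the log2 fold change of 1.04 ± 0.37 did not pass (edgeR adjusted p 0.11).

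Sema4c, a membrane ligand of Plxnb2, had the smallest p of the 53 genes. It had 16.0, 15.4, 16.2 and 17.8 CPM in BMPR2 DELX 1 to 4, against 10.3, 9.83, 10.8 and 12.1 CPM in ROSA 1 to 4. Values were even within each group and did not overlap. The gene rose by 0.60 ± 0.09 (SE, edgeR adjusted p 0.0064), from 0.56 to 0.66 without 1 library. Exons of Sema4c overlap with D430040D24Rik on the opposite strand. Plxnb2 itself had 455, 531, 460 and 516 CPM in BMPR2 DELX 1 to 4, against 436, 450, 403 and 421 CPM in ROSA 1 to 4, a log2 difference of 0.20 ± 0.07 that did not pass (edgeR adjusted p 0.11). The other 5 class 4 genes did not pass. Sema4b had 24.3 ± 3.50 CPM in BMPR2 DELX, against 28.6 ± 3.63 CPM in ROSA (SD, n = 4 each), and Sema4g had 5.85 ± 1.32 CPM in BMPR2 DELX, against 3.996 ± 0.655 CPM in ROSA. Sema4a, Sema4d, the ligand of Plxnb1, and Sema4f each averaged under 3 CPM, with log2 fold changes of 0.44 ± 0.28, 0.61 ± 0.30 and -0.76 ± 0.37. Sema4b was the highest of the 6 per kilobase.

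Class 5 and class 6 semaphorins are transmembrane proteins, the class 5 ones with thrombospondin repeats. Sema5a had 9.23, 11.8, 13.3 and 10.1 CPM in BMPR2 DELX 1 to 4, against 20.2, 15.3, 20.3 and 15.2 CPM in ROSA 1 to 4. The groups did not overlap. It fell by 0.67 (SE 0.14, edgeR adjusted p 0.022) and lost the call without any 1 of BMPR2 DELX 2, BMPR2 DELX 4 or ROSA 1, with adjusted p of 0.0507 to 0.0675. Its paralog Sema5b, scarce at 0.481 ± 0.0684 CPM in BMPR2 DELX, against 0.958 ± 0.315 CPM in ROSA (SD, n = 4 each), had a log2 fold change of -0.99 ± 0.28 that did not pass (edgeR adjusted p 0.055).

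All 4 class 6 genes had positive log2 fold changes, and 2 passed. Sema6d, a ligand of Plxna1, had 13.5, 10.97, 12.3 and 11.4 CPM in BMPR2 DELX 1 to 4, against 7.61, 8.98, 8.41 and 9.46 CPM in ROSA 1 to 4. Sema6c had 4.12, 4.26, 5.40 and 4.42 CPM in BMPR2 DELX 1 to 4, against 2.18, 1.84, 2.43 and 3.76 CPM in ROSA 1 to 4. Neither gene overlapped between groups, and ROSA 4 was the highest control for each. Sema6d rose by 0.48 ± 0.10 (edgeR adjusted p 0.023) and lost the call without any 1 of BMPR2 DELX 3, ROSA 1 or ROSA 2, with adjusted p of 0.052 to 0.058. Sema6c rose by 0.84 ± 0.22 (edgeR adjusted p 0.044), which was 1.09 without ROSA 4, the only library whose omission kept the call, and adjusted p was 0.064 to 0.11 without any 1 of the other 7. Sema6b, at 13.6 ± 7.03 CPM in BMPR2 DELX, against 7.61 ± 0.837 CPM in ROSA, and Sema6a, at 2.95 ± 0.731 CPM in BMPR2 DELX, against 1.91 ± 0.712 CPM in ROSA (SD, n = 4 each), did not pass.

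**Figure D4:**
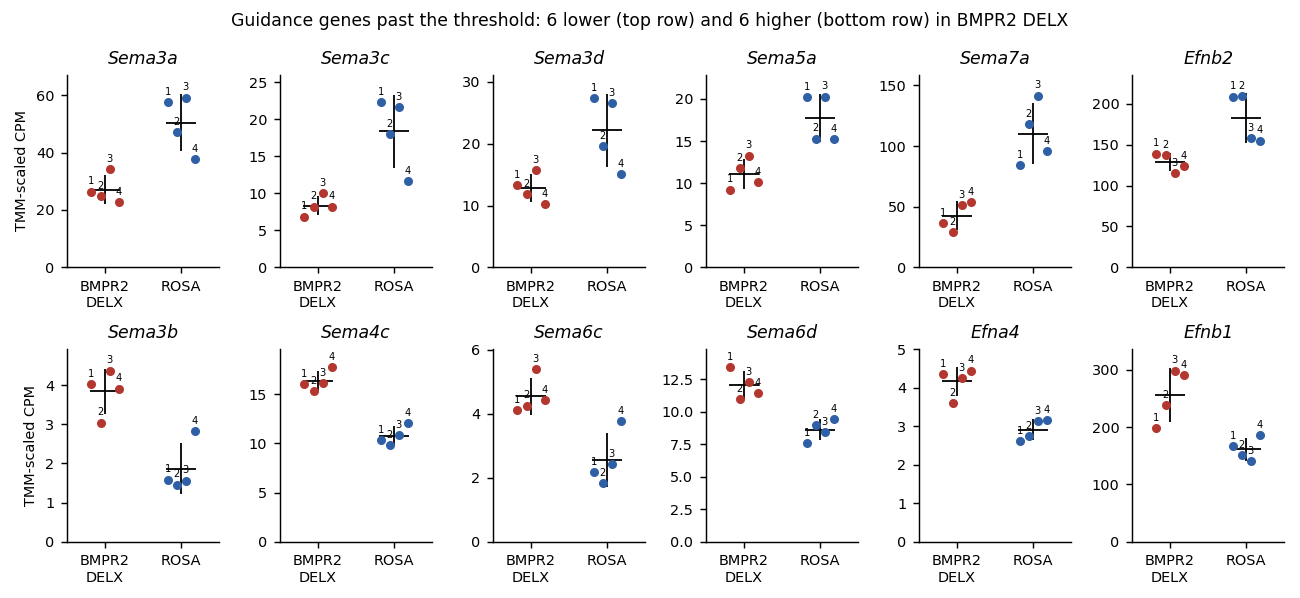
CPM scaled by trimmed mean of M values factors in each library for the 12 called guidance genes, with the library number beside each point and bars for the mean and SD of 4 libraries. The top row holds the 6 lower genes and the bottom row the 6 higher ones, and the groups overlap for Sema3d alone, where BMPR2 DELX 3 at 15.7 lies above ROSA 4 at 15.1.

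The ephrin-B ligands, which are transmembrane partners of EphB receptors, moved in opposite directions. Efnb1 had 198, 239, 299 and 290 CPM in BMPR2 DELX 1 to 4, against 166, 151, 141 and 186 CPM in ROSA 1 to 4. Efnb2, also a ligand of Ephb4 and a marker of arterial endothelium, had 139, 138, 115 and 124 CPM in BMPR2 DELX 1 to 4, against 209, 210, 158 and 155 CPM in ROSA 1 to 4. The groups did not overlap for either gene. Efnb1 rose by 0.67 ± 0.14 (SE, edgeR adjusted p 0.0198) and lost the call without ROSA 2 (0.65, adjusted p 0.063). Efnb2 fell by 0.51 (SE 0.12, edgeR adjusted p 0.029), with the call lost without any 1 of BMPR2 DELX 2, 3 or 4 or ROSA 1 or 2 and adjusted p of 0.058 to 0.089. Without ROSA 1 and ROSA 2 together the log2 fold change of Efnb2 was smaller, at -0.27 (adjusted p 0.23), and that of Efnb1 was 0.67 (adjusted p 0.15). The ratio of Efnb1 to Efnb2 counts within a library, which no scaling affects, was 1.42, 1.74, 2.60 and 2.34 in BMPR2 DELX 1 to 4, against 0.796, 0.719, 0.889 and 1.20 in ROSA 1 to 4. Both genes had been called in opposite directions in these same libraries, so the ratio is a description and not independent support. Efnb1 counts thus exceeded Efnb2 counts in all 4 BMPR2 DELX libraries and in ROSA 4, and were below them in the other 3 ROSA libraries. These counts are not corrected for exon length, which is 3452 bases for Efnb1 and 6855 bases for Efnb2. Per kilobase, the mean of Efnb1 was above that of Efnb2 in both groups. It was 74.2 against 18.8 CPM per kb in BMPR2 DELX, and 46.6 against 26.7 CPM per kb in ROSA. Efnb3 did not pass, with 0.463 ± 0.0754 CPM in BMPR2 DELX, against 0.784 ± 0.333 CPM in ROSA (SD, n = 4 each).

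Of the 5 ephrin-A genes, GPI-anchored ligands of EphA receptors, Efna4 rose and 4 did not pass. Efna4 had 4.35, 3.61, 4.26 and 4.45 CPM in BMPR2 DELX 1 to 4, against 2.61, 2.74, 3.13 and 3.15 CPM in ROSA 1 to 4. The groups did not overlap, and of the 12 called genes its adjusted p was nearest the threshold (0.52 ± 0.14, edgeR adjusted p 0.044). It lost the call without any 1 of the 8 libraries, with log2 fold changes of 0.49 to 0.58 and adjusted p of 0.056 to 0.12. Reads of its exons overlap on the opposite strand with 4731419I09Rik. Efna1 and Efna3 lie beside it on chromosome 3. Efna1, which endothelial cells also make, had 6.71, 5.36, 1.82 and 3.08 CPM in BMPR2 DELX 1 to 4, against 2.30, 1.97, 0.865 and 1.96 CPM in ROSA 1 to 4. It was lowest in library 3 of each group, and its log2 fold change of 1.25 ± 0.42 did not pass (edgeR adjusted p 0.095). Efna5 had 15.1 ± 2.94 CPM in BMPR2 DELX, against 21.1 ± 4.93 CPM in ROSA (SD, n = 4 each), Efna2 had 1.87 ± 0.438 CPM in BMPR2 DELX, against 1.19 ± 0.293 CPM in ROSA, and Efna3 had 1.74 ± 0.303 CPM in BMPR2 DELX, against 1.51 ± 0.449 CPM in ROSA.

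The Eph receptors, the largest family of receptor tyrosine kinases, had 9 of 14 genes tested and 0 called by edgeR, with 4 at an unadjusted p below 0.05, 3 called by DESeq2 and 2 by voom. A pair lay at the threshold. Ephb3 had 17.5, 19.96, 20.7 and 20.1 CPM in BMPR2 DELX 1 to 4, against 15.3, 12.2, 12.1 and 17.5 CPM in ROSA 1 to 4 (log2 fold change 0.46 ± 0.13, edgeR adjusted p 0.050). Epha4, which binds A and B ephrins, had 24.2, 22.6, 29.7 and 34.9 CPM in BMPR2 DELX 1 to 4, against 47.4, 43.4, 35.3 and 36.3 CPM in ROSA 1 to 4 (-0.54 ± 0.15, adjusted p 0.051). Ephb3 was called with relative log expression and upper-quartile factors, in DESeq2, voom, and under each other filter or strand column tried, and Epha4 in DESeq2, voom and the filter at 1 CPM. All BMPR2 DELX libraries of Ephb3 were above all ROSA libraries, and those of Epha4 were below them.

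Ephb4, the venous partner of Efnb2, had 184, 208, 153 and 158 CPM in BMPR2 DELX 1 to 4, against 158, 144, 106 and 146 CPM in ROSA 1 to 4, and did not pass (0.34 ± 0.14, edgeR adjusted p 0.15). Epha2, a receptor of ephrin-A ligands, had 92.3, 135, 50.1 and 86.9 CPM in BMPR2 DELX 1 to 4, against 142, 194, 135 and 139 CPM in ROSA 1 to 4. Its groups were apart by a small margin, and the log2 fold change of -0.75 ± 0.27 did not pass (edgeR adjusted p 0.13). The other tested receptors of the family, Epha1, Epha3, Epha7, Ephb2 and Ephb6, had log2 fold changes of -0.33 to 0.17. Epha5, Epha6, Epha8, Ephb1 and Epha10 were too low to be tested. Of these, Epha10 had 42 and 47 counts in ROSA 1 and ROSA 4, at most 2 in the other ROSA libraries, and at most 1 in any BMPR2 DELX library.

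Plexins and neuropilins, the semaphorin receptors, did not pass in edgeR (0 of 8 and 0 of 2 tested genes), although 3 plexins and both neuropilins had an unadjusted p below 0.05, DESeq2 called 2 plexins and 1 neuropilin, and voom called 0. Nrp1, the main partner of Sema3a and a co-receptor for VEGF, had 143, 148, 156 and 153 CPM in BMPR2 DELX 1 to 4, against 202, 181, 178 and 158 CPM in ROSA 1 to 4. The groups did not overlap, with a log2 fold change of -0.26 ± 0.08 (edgeR adjusted p 0.062). Nrp2, the preferred receptor of Sema3f, had 381, 392, 289 and 354 CPM in BMPR2 DELX 1 to 4, against 374, 423, 428 and 441 CPM in ROSA 1 to 4 (-0.24 ± 0.10, adjusted p 0.16). Plxna1, a signalling subunit for class 3 and class 6 semaphorins, had 421 ± 66.6 CPM in BMPR2 DELX libraries, against 433 ± 19.4 CPM in ROSA libraries (SD, n = 4 each), a log2 fold change of -0.04 ± 0.11 (edgeR adjusted p 0.85). The other A and B plexins had log2 fold changes of -0.20 ± 0.34 for Plxna2, -0.03 ± 0.13 for Plxna3, 0.17 ± 0.33 for Plxna4 and 0.41 ± 0.23 for Plxnb1. Plxnb3 was too low to be tested, with at most 5 counts in a library.

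Several guidance genes were low in the libraries with low endothelial markers. Plxnd1, the endothelial receptor of Sema3e, had 195, 170, 93.6 and 125 CPM in BMPR2 DELX 1 to 4, against 94.7, 90.6, 41.5 and 80.4 CPM in ROSA 1 to 4. Library 3 was lowest in each group, as it was for the summed endothelial markers. The log2 fold change of 0.93 ± 0.31 did not pass (edgeR adjusted p 0.10), and without BMPR2 DELX 3 and ROSA 3, a setting chosen after seeing the data, it was 0.88 (adjusted p 0.024). Efna1 was also called in that setting (1.28, adjusted p 0.043). Over all genes, edgeR called 631 of 14956 there. Of the 12 guidance genes called with all libraries, 5 kept the call. Efna4, Efnb1, Efnb2, Sema3b, Sema3d, Sema6c and Sema6d lost it. Of the 53 tested genes, 11 were lowest in library 3 of both groups, or 20.8%, against 8.21% of all genes tested. They were Plxnd1, Plxna2, Plxna4, Sema3f, Sema6b, Efna1, Efna3, Efna5, Epha2, Ephb4 and Robo3. The endothelial list had 0 of 17 tested genes called, with a median log2 fold change of 0.09, and its part in the differences above was not tested.

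**Figure D5:**
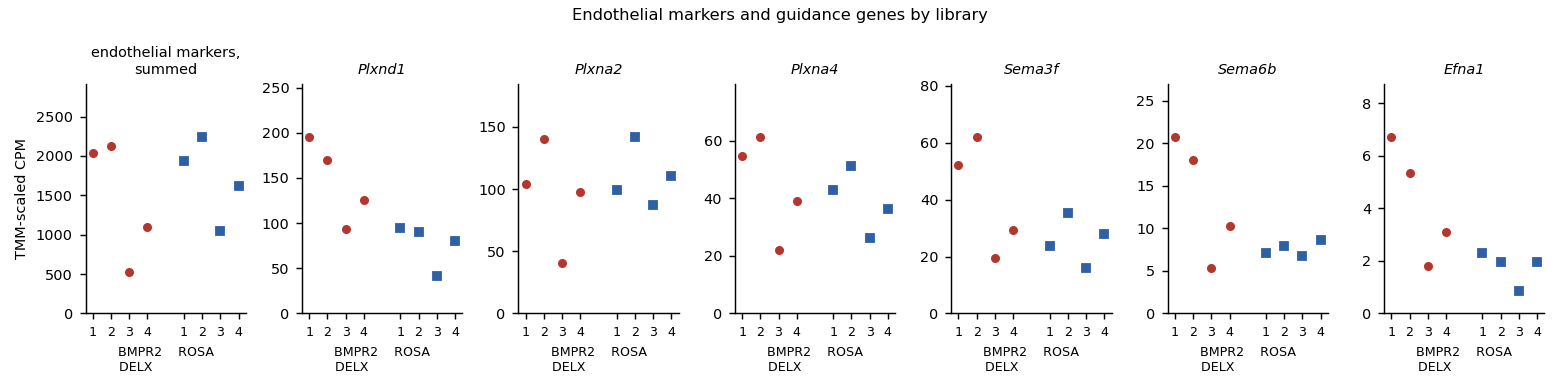
CPM scaled by trimmed mean of M values factors in each library, BMPR2 DELX 1 to 4 as circles and ROSA 1 to 4 as squares, for the sum of 18 endothelial markers and for 6 guidance genes. In each panel library 3 is the lowest of its group, and the markers sum to 530 CPM in BMPR2 DELX 3, against 1041 CPM in ROSA 3.

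The Slits are large secreted glycoproteins. Slit3 had 189, 167, 225 and 207 CPM in BMPR2 DELX 1 to 4, against 215, 122, 85.7 and 156 CPM in ROSA 1 to 4. Slit2 had 65.0, 77.8, 84.1 and 59.75 CPM in BMPR2 DELX 1 to 4, against 146, 89.9, 68.1 and 57.1 CPM in ROSA 1 to 4. ROSA 1 was the highest of all libraries for Slit2 and of the controls for Slit3, and the groups overlapped for both (edgeR adjusted p 0.49 and 0.30). The scarce Slit1 had 0.655, 0.874, 0.969 and 1.095 CPM in BMPR2 DELX 1 to 4, against 0.155, 0.243, 0.565 and 0.642 CPM in ROSA 1 to 4, from 20 to 49 counts in BMPR2 DELX and 5 to 22 counts in ROSA. Its groups were apart by a narrow margin and it did not pass (1.18 ± 0.40, adjusted p 0.096).

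Robo1 and Robo2, which bind Slits, had opposite signs, and neither passed. Robo1 had 19.9, 23.0, 28.8 and 31.4 CPM in BMPR2 DELX 1 to 4, against 10.04, 14.3, 23.6 and 19.99 CPM in ROSA 1 to 4 (log2 fold change 0.61 ± 0.26, edgeR adjusted p 0.18). Robo2 had 1.18, 1.55, 0.939 and 0.581 CPM in BMPR2 DELX 1 to 4, against 2.89, 2.06, 2.69 and 1.31 CPM in ROSA 1 to 4 (-1.08 ± 0.33, adjusted p 0.072). Each pair of groups overlapped by 1 or more libraries. Robo3, a divergent member that in mammals does not bind Slits strongly, did not pass, with 2.72 ± 1.60 CPM in BMPR2 DELX, against 3.18 ± 0.530 CPM in ROSA (SD, n = 4 each).

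Genes that carry the signal inside the cell were taken as a list of 54, with 2 higher, 6 lower and 44 not passing among 52 tested, and a median log2 fold change of -0.01. The tyrosine kinase gene Abl2 fell by 0.74 (SE 0.14), with 97.2 ± 5.51 CPM in BMPR2 DELX, against 162 ± 35.5 CPM in ROSA (SD, n = 4 each). Srgap2, whose product binds Robo1, rose by 0.36 ± 0.08, and Fes, a kinase that binds plexins, rose by 0.49 ± 0.11. Cfl1, the actin-severing cofilin, fell by 0.25 (SE 0.06), to 978 ± 32.8 CPM in BMPR2 DELX, against 1165 ± 46.7 CPM in ROSA. Among 32 tested genes of other guidance systems, 2 were higher, 5 were lower and 25 did not pass, with a median of -0.03. The netrin receptor Unc5c had 2.85, 3.07, 4.34 and 3.91 CPM in BMPR2 DELX 1 to 4, against 11.6, 10.4, 10.7 and 5.17 CPM in ROSA 1 to 4, and fell by 1.41 (SE 0.25, edgeR adjusted p 0.012). Its paralog Unc5b, abundant at 715 ± 44.2 CPM in BMPR2 DELX, against 554 ± 34.6 CPM in ROSA, rose by 0.37 ± 0.07 (adjusted p 0.016). Rgma, the GPI-anchored BMP co-receptor and neogenin ligand, fell by 0.52 (SE 0.11), and the proteoglycan Cspg4, also a pericyte marker, fell by 1.04 (SE 0.23). Both lists are described by counts beside the 9.10% of all genes called.

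Markers of other cell types were also uneven. Summed levels did not overlap between groups for 13 macrophage and leukocyte markers, at 40.1 to 73.9 CPM in BMPR2 DELX, against 27.9 to 38.9 CPM in ROSA. The leukocyte gene Ptprc had at most 0.599 CPM, and 8 of 13 were under 1 CPM in every library. The largest part was Csf1r, at 21.1 to 38.1 CPM in BMPR2 DELX, against 19.5 to 26.6 CPM in ROSA. Its groups overlapped and it did not pass (edgeR adjusted p 0.21). Sums did not overlap for 12 Schwann and neural markers, at 12.5 to 15.6 CPM in BMPR2 DELX, against 17.3 to 27.0 CPM in ROSA. These were mostly the tubulin gene Tubb3, with 9 of 12 under 1 CPM and the Schwann cell factor Sox10 at 0 in every library. Nor did they overlap for the 13 adipocyte markers, which summed to 315 to 386 CPM in BMPR2 DELX libraries, against 261 to 293 CPM in ROSA libraries. Lpl, the lipoprotein lipase gene that fibroblasts and macrophages also express, made up 119 to 246 CPM of each sum. The other tested adipocyte markers did not pass and were divided. Log2 fold changes were negative for Fabp4 and Pnpla2 (-0.29 and -0.21) and positive for Pparg, Cebpa and Lipe (0.44, 0.80 and 0.36). Sums overlapped for 12 smooth muscle and pericyte markers (9627 to 13118 CPM in BMPR2 DELX, 11217 to 14892 CPM in ROSA), for 13 epithelial and mesothelial markers (25.7 to 59.2 CPM in BMPR2 DELX, 34.6 to 55.0 CPM in ROSA) and for 6 lymphatic endothelial markers (261 to 418 CPM in BMPR2 DELX, 386 to 471 CPM in ROSA). The epithelial and mesothelial sum held markers of both signs. Log2 fold changes were 0.83 to 3.38 for Pax8, Krt8, Cdh16, Upk3b, Krt18 and Krt7, and -1.12 to -0.57 for Krt19, Msln and Cldn4. Of these, only Pax8 passed. Krt19, the largest part in ROSA, had 7.57 to 20.4 CPM in BMPR2 DELX, against 22.4 to 30.7 CPM in ROSA. Cdh1, Epcam, Krt5 and Krt14 had at most 0.166 CPM in any library. Across the marker lists, Cd68, Pax8, Notch3, Col3a1 and Lpl were called higher and Pdpn, Tubb3 and Cspg4 lower. Their part in the differences of the guidance genes was not tested.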

How the data were processed

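Per the labels, polyadenylated RNA was extracted with a Qiagen kit and sequenced from Illumina libraries. The submitters' processing notes name GRCm38, STAR 2.5.2b and HTSeq, with no role or order. The deposited files hold raw read counts per Ensembl gene, not normalized, laid out as STAR writes gene counts, with 49671 genes and 4 lines naming no gene (14.7% to 22.0% of reads), which stayed out of totals and tests. The annotation release and read layout are not given in the sources used here. Column 4, opposite strand, was used.

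Symbols, positions and exon lengths came from GENCODE M21 (GRCm38, 49326 IDs found). Genes were filtered with filterByExpr, scaled by TMM and compared with edgeR 4.0.16 (quasi-likelihood, robust, R 4.3.3), with Benjamini-Hochberg adjustment over 14887 genes and a threshold of 0.05. The fit was tested on simulated data. The standard error is the log2 fold change over the square root of F. CPM per kb divides CPM by the length of all exons merged. A count of 0 allows up to 3 counts, or 0.0687 to 0.104 CPM, for counting error only. Exons of 3 members overlap another annotated gene on the same strand (Nrp1, Plxnc1 and Sema4a) and those of 11 on the opposite strand, so their counts are less certain.

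Replicate numbers do not pair the samples by the labels. The members, the lists of other genes and the settings were chosen with earlier results of these data known. Every member is given by family, with library values for called genes, for the gene of highest level per length in each family and, in families with no called gene, for that of smallest p. Library values of other members are shown by choice after seeing them. Of the lists of other guidance genes, up to 4 genes of smallest p were named, and others were named after their values were seen. Alternatives were DESeq2 1.42.0, voom (limma 3.58.1) with quality weights, factors by upper quartile or by relative log expression, other filters, the unstranded column, the replicate block and leaving out each library. Figures were drawn with matplotlib 3.10.9.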

Additional observations from a re-analysis of the deposited data

Results flagged for a closer look

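Of 106 groups of 4 libraries, 4 held a library far from the other 3 by Dixon's criterion, and chance gives about 1 in 20. The level of Epha2 in ROSA 2 was 194.1 CPM, against 135.4 to 141.7 CPM in the other ROSA libraries. Sema3b in ROSA 4 was 2.831 CPM, against 1.456 to 1.585 CPM in the others. Sema4b in ROSA 1 was 34.06 CPM, against 26.55 to 26.97 CPM. Robo3 in ROSA 3 was 2.394 CPM, against 3.387 to 3.531 CPM. All 4 libraries are controls, and Sema3b is the only one of these genes that was called.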

How the results depend on the processing

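The 12 called genes kept their signs in all fits, which share libraries with the fit that chose them. Counts of guidance genes called moved by over 1.5 times, or away from 0 for receptors, as follows. DESeq2 called 2298 genes, 11 guidance genes higher and 12 lower, and 7 receptors. Receptors called were 1 with relative log expression factors, upper-quartile factors or the unstranded column, and 2 with voom, no count filter or the filter at 1 CPM. With the replicate block 11 guidance genes were lower and 4 receptors were called, against 12 guidance genes in all with no block and 18 with it, and Efna4 and Sema6d lost the call. Same-numbered libraries did not deviate together throughout (correlations of 0.0050, 0.21, 0.24 and 0.093), so the numbers were not taken as pairs. Without 1 library, genes called ran from 477 to 1266, guidance genes higher from 1 to 6, lower from 3 to 9, ligands from 5 to 12 and receptors from 0 to 3. Without ROSA 1 and ROSA 2 there were 172 genes, 0 guidance genes higher, 0 lower and 0 ligands. Without BMPR2 DELX 3 and ROSA 3 there were 631 genes, 3 guidance genes higher, 6 ligands and 1 receptor. Upper-quartile factors shifted the median log2 fold change of all genes to 0.04 and called 734 genes higher and 606 lower, against 589 and 766 with TMM. The 6 untested genes did not pass the count filter and stayed at or under 47 counts in each library.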
